A study of Mus musculus with 3 samples.

Results

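The comparison described here sets JC-M3, a lung-selected population of the JC mouse mammary carcinoma line, against JC-P, a population of the same line recovered from fat pad tumours. It uses 2 of the 3 RNA libraries of the series. JC-P cells came from tumours in the mammary fat pad at day 14. JC-M3 cells had passed through 3 rounds of tail vein injection and isolation from lung lesions, with isolation at day 28. The JC-WT library, from the line labelled WT, gives each gene's level in the line itself. All 3 populations carry the genotype label WT, are described as epithelial-like and were grown in culture in the same serum-containing medium before RNA was taken. The treatment label reads metastasis for JC-P as well as JC-M3, so the fat pad origin of JC-P rests on the protocol text alone. There was 1 library per population, so each value describes a pair of libraries, with no replicate check and no significance test. Whether a pool, a clone or several animals stood behind each population is not given in the sources used here.

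Repeated passage through the lung is a classical way of enriching tumour cells that can lodge and grow there, and the cells recovered carry whatever distinguished them or was altered on the way. Carcinoma cells in such settings often differ in their actin cytoskeleton, in the matrix they secrete and in the junctions that hold epithelial cells together. Serum response factor with its MRTF coactivators drives actin and contractile genes through a DNA element called the CArG box, while YAP with TEAD factors drives an overlapping set that responds to cell shape and tension.

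Measured features are those averaging 1 TPM or more over the 3 libraries (TPM is a level corrected for gene length and scaled to the library's total), which held for 14527 of 55471 features. Back-calculation from the deposited levels gave 18093426 reads in genes for JC-WT, 22132593 for JC-P and 23386413 for JC-M3. Ratios are log2 differences of TPM + 0.5 between JC-M3 and JC-P. A feature is called higher or lower where its ratio reached 2-fold. Ranges in parentheses are 95% exact intervals for counting error, computed on TPM without the added 0.5. They leave out variation between cultures, and for low genes the ratio of TPM + 0.5 can lie outside them. Levels follow the order JC-WT, JC-P and JC-M3 wherever the libraries are not named.

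In JC-M3, 555 measured features were higher than in JC-P (3.82%) and 781 were lower (5.38%), with a median log2 ratio of -0.01 over all measured features. These 2 percentages are the background against which the counts in gene families below can be read. Ratios of at least 4-fold were held by 137 higher and 178 lower features, and of at least 8-fold by 51 and 68. The lower and upper quartiles of the ratio were -0.32 and 0.27. The 555 higher features together went from 6677 TPM in JC-P to 20045 TPM in JC-M3. The 781 lower ones went from 54292 to 17817 TPM, so the features lower in JC-M3 included more abundant transcripts. Counting intervals left out no change for 395 of the higher and 604 of the lower features. They also did so for 8488 of all 14276 measured features with an interval, so this is common among features within 2-fold as well. Among the 11405 measured protein-coding genes, 316 were higher and 458 lower. Short noncoding genes were called more often, with 34 of 180 microRNA genes higher and 47 lower and 38 of 158 small nucleolar RNA genes higher and 23 lower. A polyadenylated-RNA library covers such short genes with few reads, and none is named below.

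**Figure D1:**
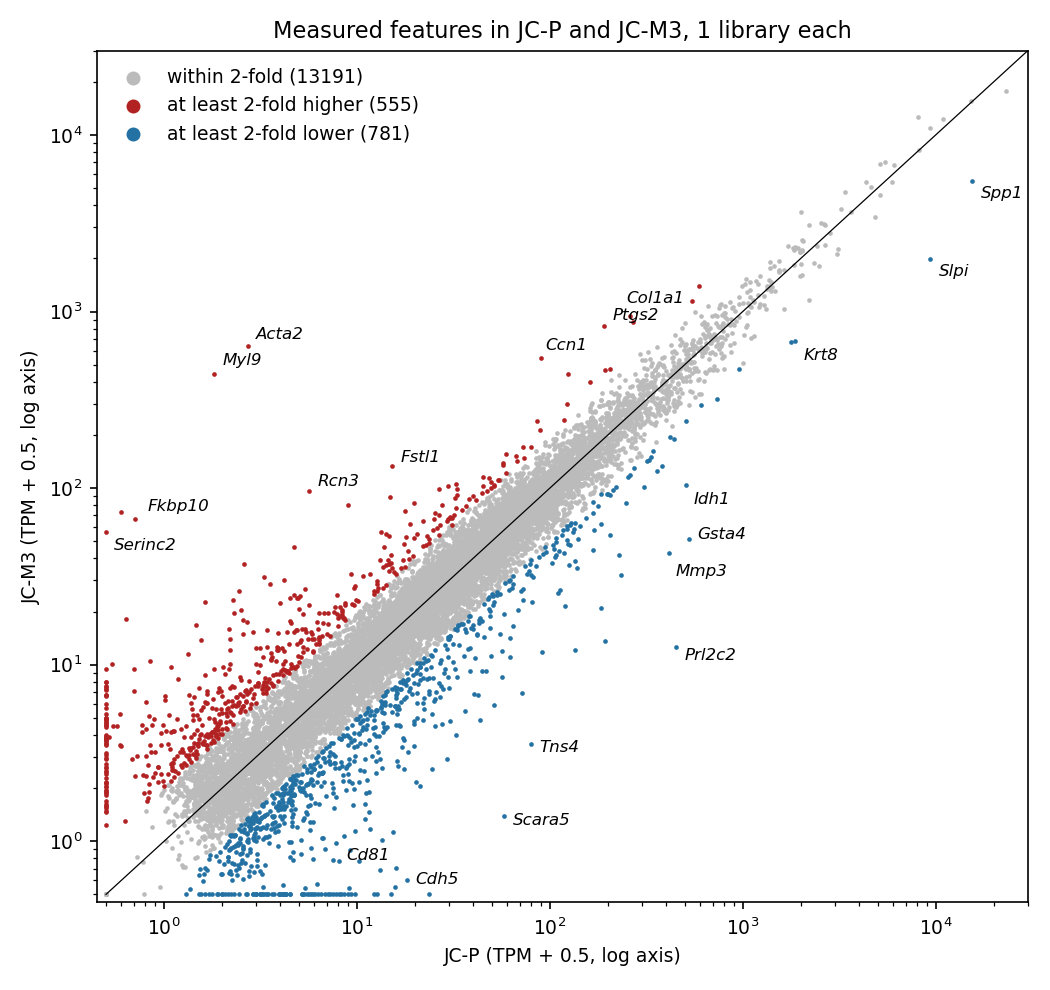
Level of each of the 14527 measured features in JC-P (horizontal, TPM + 0.5, log axis) and in JC-M3 (vertical, TPM + 0.5, log axis), 1 library each. Red points are the 555 features at least 2-fold higher in JC-M3, blue points the 781 at least 2-fold lower, and the line marks equal levels. Myl9 and Acta2 lie far above the line, and Spp1 and Slpi are the lower genes with the highest levels.

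Markers of the cells that could accompany a tumour were mostly absent. Lymphocyte and adipocyte lists had no measured member (0 of 15 and 0 of 12), and the pan-leukocyte gene Ptprc and the macrophage gene Adgre1 had 0 TPM in both libraries, as did the haemoglobin genes. The summed level of the 22 macrophage and myeloid markers was 71.3, 52.2 and 75.8 TPM. The surfactant gene Sftpc, the club cell gene Scgb1a1 and the lung transcription factor gene Nkx2-1 were at 0 in JC-P and JC-M3, and the 20 lung epithelial markers summed to 386, 265 and 175 TPM. Endothelial markers summed to 277, 305 and 279 TPM over 16 genes, with Kdr, Emcn, Cldn5 and Erg at 0 in JC-P and JC-M3. Of the 4 measured, 0 were higher and 2 lower, including Cdh5 (values below), with a median log2 ratio of -1.40. The 14 fibroblast markers summed to 224, 419 and 1097 TPM, and of the 8 measured 3 were higher and 3 lower. Most of that sum was Col1a1, and Lum, Thy1 and Tcf21 were at 0 in both libraries. The 13 pericyte and vascular smooth muscle markers summed to 64.4, 55.1 and 115 TPM, with Kcnj8, Abcc9, Higd1b and Cox4i2 at 0 in both. Their part in the results below was not tested. In a bulk library, fewer cells of a type and less RNA per cell cannot be told apart. Several genes that define epithelial cells were at or near 0 in these libraries, although the labels describe the line as epithelial-like. Epcam and Cldn7 had 0 reads in all 3 libraries, and the epithelial cadherin gene Cdh1 had 0, 25 and 21 reads. The epithelial keratin gene Krt8, in contrast, was abundant (values below). Vim, the mesenchymal intermediate filament gene, stood at 2528, 2674 and 2384 TPM, within 2-fold throughout.

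Smooth muscle contractile genes held the 3 largest ratios among genes averaging at least 10 TPM in JC-P and JC-M3, and all that passed 2-fold were higher in JC-M3. Of the 26 genes listed, 18 were measured, 8 were higher and 0 lower, and the median log2 ratio was 0.89. Myl9, the regulatory light chain of smooth muscle myosin, stood at 2.08 TPM (JC-WT), 1.31 TPM (JC-P) and 444 TPM (JC-M3) (log2 ratio 7.94, 7.53 to 9.47). Acta2, smooth muscle alpha actin, stood at 16.5, 2.22 and 642 TPM (log2 ratio 7.88, 7.68 to 8.73), and Actg2, the enteric smooth muscle actin, at 1.44, 0.098 and 72.6 TPM. JC-WT held more Acta2 than JC-P but far less than JC-M3, so JC-M3 was the high library for all 3 genes. Jph2, which ties the sarcoplasmic reticulum to the plasma membrane in muscle, had 0, 1 and 281 reads. The smaller members differed less, with the LIM-domain genes Csrp1 at 171, 123 and 297 TPM and Fhl1 at 3.01, 1.39 and 6.48 TPM and the actin-binding gene Tagln at 1.12, 0.84 and 2.57 TPM (log2 ratio 1.19, 0.60 to 2.73). Mustn1, a small nuclear protein gene of the musculoskeletal system, stood at 0.15, 1.72 and 4.83 TPM. The most abundant member, the actomyosin regulator Cald1, was level at 1063, 1100.3 and 1060.1 TPM. Of 4 further smooth muscle genes looked up after the other values were seen, 3 were near 0 in JC-P and JC-M3. Myh11, the smooth muscle myosin heavy chain, had 5 reads in JC-P and 0 in JC-M3. Cnn1, calponin, had 1 and 2 reads, and Myocd, the smooth muscle coactivator of serum response factor, had 0 in all libraries. Lmod1, leiomodin, had 1, 0 and 50 reads and was the exception. The median of the list was 0.61 when genes of any mean level were kept.

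Since Myl9 and Fhl1 share a CArG box close to their annotated starts, their promoters and that of Acta2 are printed from 250 bases before to 50 bases after the RefSeq start (GRCm38.p6), 5′ to 3′ on the gene's strand. Capitals mark a match to the CArG box, a pair of C, then a run of A or T, then a pair of G, 10 bases in all. Such a match is one on both strands.
Myl9 promoter (chr2:156775214-156775513, plus strand): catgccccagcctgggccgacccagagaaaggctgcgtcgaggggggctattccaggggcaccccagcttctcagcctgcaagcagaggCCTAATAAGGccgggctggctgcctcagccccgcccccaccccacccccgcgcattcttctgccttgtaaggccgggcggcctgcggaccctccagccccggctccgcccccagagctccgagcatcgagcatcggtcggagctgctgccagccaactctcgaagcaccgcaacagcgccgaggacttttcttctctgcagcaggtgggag
Fhl1 promoter (chrX:56779433-56779732, plus strand): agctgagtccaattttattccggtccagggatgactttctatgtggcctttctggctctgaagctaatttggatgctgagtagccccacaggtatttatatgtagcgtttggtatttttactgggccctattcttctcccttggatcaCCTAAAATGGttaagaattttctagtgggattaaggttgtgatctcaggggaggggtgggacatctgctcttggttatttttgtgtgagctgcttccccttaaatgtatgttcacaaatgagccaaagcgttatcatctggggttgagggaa
Acta2 promoter (chr19:34255324-34255623, minus strand): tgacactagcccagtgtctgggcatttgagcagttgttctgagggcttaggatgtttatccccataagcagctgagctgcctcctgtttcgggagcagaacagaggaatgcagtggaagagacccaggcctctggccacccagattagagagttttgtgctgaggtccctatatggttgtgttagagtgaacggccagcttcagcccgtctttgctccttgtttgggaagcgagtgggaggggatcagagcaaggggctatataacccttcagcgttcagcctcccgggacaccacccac
In the Myl9 promoter the match began 161 bases before the start, and in the Fhl1 promoter 102 bases before it. The window at another RefSeq start of Fhl1, not printed, held none. The Acta2 window held no exact match to these letters. The search took exact letters only, so near matches such as ccctatatgg and ccttgtttgg in the Acta2 window were not counted. The absence of capitals there therefore does not show that Acta2 lacks such an element. A CArG box occurred in 1.63% of all 32851 mouse promoters in the RefSeq set, in 2.08% of 336 promoters of higher genes, in 0.423% of 473 promoters of lower genes and in 1.22% of 11183 promoters of genes within 2-fold. Few genes stand behind these shares. The higher genes with a match were Myl9, Fhl1, Slc25a23, Rap1gap2, Tpst2 and Rnd3, and the lower ones Prickle3 and Rasa4. The AP-1 motif (TGAGTCA or TGACTCA, either strand) was found in 6.55% of promoters of higher genes, 8.25% of lower genes and 3.59% of genes within 2-fold. The TEAD motif (GGAATG, either strand) was found in 16.4%, 14.4% and 12% of the same promoters. Over all promoters in the RefSeq set the shares were 5.2% for AP-1 and 14.7% for TEAD. A match describes letters in the window and does not show binding.

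The wider cytoskeleton leaned the same way with few members past 2-fold. Of 30 measured targets of serum response factor and MRTF, 26 had ratios above 0 (median 0.35), 3 were higher and 1 lower. Nexn, an actin-binding Z-disc protein gene, stood at 1.41, 3.86 and 14.9 TPM, and the beta actin gene Actb, the most abundant target, at 6238, 5434 and 7022 TPM. Tes, a zyxin-binding focal adhesion gene, was the lower one at 139.5, 122 and 50.1 TPM. Among 21 measured myosin genes, 4 were higher and 0 lower (median 0.37, or 0.06 with no filter on the mean). They included the nonmuscle heavy chain Myh14, higher at 1.56, 1.13 and 8.28 TPM (log2 ratio 2.43, 2.46 to 3.31). The essential light chain Myl6, the most abundant, stood at 534, 567 and 989 TPM. Focal adhesion adaptors had a median of 0.25, with 1 of 31 higher and 3 lower. Tns4, a tensin that lacks the actin-binding end of its relatives, was the lowest at 202, 79.5 and 3.07 TPM (log2 ratio -4.48, -4.98 to -4.42), followed by Tes and the PDZ-LIM gene Pdlim2 at 373, 418 and 193 TPM. Its relative Pdlim1 was higher, at 0.35, 2.31 and 6.73 TPM. The Rnd genes, which encode atypical small GTPases, were both higher, with Rnd1 at 26.4, 14.1 and 38.7 TPM and Rnd3 at 22.7, 15.5 and 32.2 TPM, as were the GTPase activating genes Arhgap29 at 3.83, 3.66 and 29.5 TPM and Arhgap9 at 4.08, 2.81 and 30.9 TPM. Another atypical GTPase gene, Rhov, was lower at 4.05, 4.65 and 0.51 TPM. None of 13 tubulins passed 2-fold. Of 10 septins, which form filaments at the cell cortex, 8 had ratios below 0 (median -0.41, or -0.27 with no filter on the mean). Septin6 was lower at 10.5, 9.73 and 3.54 TPM.

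Junction and adhesion families were split, with different members on each side. Of 6 measured keratins of 51 in the table, 3 were lower and 2 higher. The simple-epithelial pair was lower together, Krt8 at 1503 TPM (JC-WT), 1872 TPM (JC-P) and 681 TPM (JC-M3) (log2 ratio -1.46, -1.49 to -1.42) and its partner Krt18 at 48.6, 48.5 and 18.4 TPM, while Krt80, a keratin found near desmosomes, was higher at 10.9, 3.50 and 21.8 TPM. Of the windows of 50 bases in Krt8 transcripts, 26.9% also occur in other genes, so part of its level is uncertain. Krt8 and Krt18 were the 2 lower genes of 8 measured luminal mammary markers. Of these 8, 1 was higher and 5 had ratios above 0 (median 0.43). Of 6 measured basal mammary markers, 1 was higher and 1 lower (median 0.46). Desmosome and adherens junction genes had 3 of 15 higher and 4 lower. The plaque genes Ppl (16.3, 25.2 and 6.49 TPM) and Pkp3 (72.6, 64 and 28.1 TPM) were lower, whereas Pkp2, the plakophilin of heart and simple epithelia, was higher at 10.5, 9.20 and 21.3 TPM, as was the nectin gene Nectin3 at 3.29, 4.11 and 9.18 TPM. In tight junctions the claudin gene Cldn1 was lower at 19.5, 35.2 and 10.7 TPM, as was the occludin gene Ocln at 4.06, 0.87 and 0.035 TPM. The junctional scaffold gene Cgnl1 was higher at 25.3, 17.3 and 73.5 TPM.

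Cadherin genes called numbered 2 higher and 2 lower among 31. The large protocadherin-like gene Fat4 stood at 1.93, 0.35 and 9.99 TPM (log2 ratio 3.63, 4.39 to 5.35), and Cdh19, a cadherin of Schwann cell precursors, had 0 reads in JC-WT and JC-P and 180 in JC-M3. Against a floor of 3 reads in JC-P, Cdh19 was at least 57.5-fold higher. Pcdh1 was lower at 32.8, 31.1 and 12.7 TPM, and Cdh5, the endothelial cadherin, went from 490 reads in JC-P to 3 in JC-M3, with 2 in JC-WT. JC-P was therefore the one library that held Cdh5. Integrin beta subunits also diverged. Itgb2, the leukocyte integrin subunit, stood at 10.9, 12.1 and 2.34 TPM, Itgb4, the hemidesmosome subunit, at 54.4, 26 and 7.36 TPM and Itgb7 at 101, 79 and 31.6 TPM, all lower, while Itgb5, a vitronectin receptor subunit, was higher at 28.9, 32.4 and 98.5 TPM (log2 ratio 1.59, 1.49 to 1.72) and Itgb8, which takes part in activating latent TGF-beta, at 0.45, 1.21 and 4.51 TPM. The most abundant subunit, Itgb1, was within 2-fold at 564, 747 and 831 TPM. Tetraspanins, membrane organisers that partner integrins, had a median of -0.58 with 13 of 17 ratios below 0, 4 lower and 1 higher. With no filter on the mean the tetraspanin median was -0.23. Cd81 stood at 0.26, 15.5 and 0.20 TPM (log2 ratio -4.51, -8.14 to -4.89), so that JC-P again stood apart from both other libraries. Cd53 stood at 34, 19.8 and 1.67 TPM and Tspan11 at 29, 24.8 and 5.86 TPM. Of 18 immunoglobulin-type adhesion genes, 5 were higher, among them Alcam at 2.09, 0.51 and 6.14 TPM and the endothelial and melanoma adhesion gene Mcam at 9.68, 2.00 and 19.8 TPM, and 3 were lower, including Cadm4 at 7.50, 11.8 and 4.38 TPM.

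**Figure D2:**
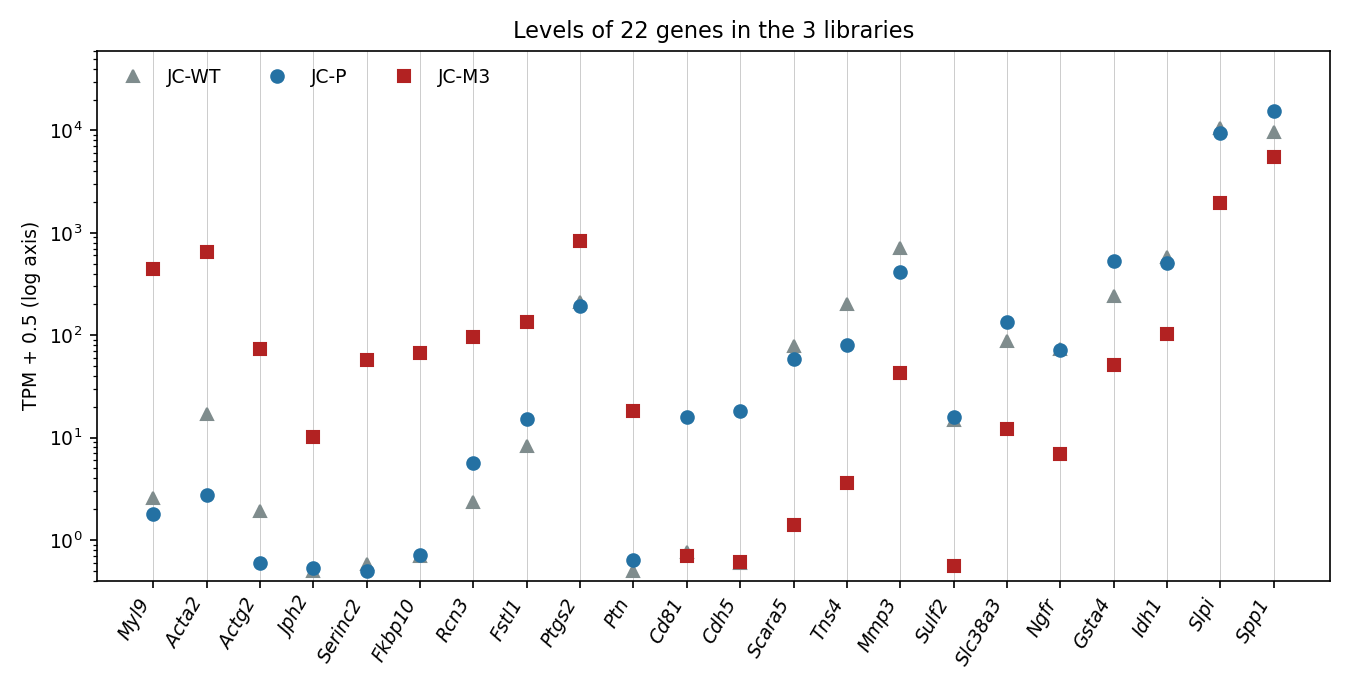
Levels of 22 genes (TPM + 0.5, log axis) in JC-WT (grey triangles), JC-P (blue circles) and JC-M3 (red squares), 1 library each. From Myl9 to Ptn the JC-M3 point is the highest, and from Cd81 to Spp1 it is below the JC-P point.

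Among secreted matrix genes, adhesive glycoproteins were more often higher than lower. Of 23 measured matricellular and adhesive glycoprotein genes, 9 were higher and 3 lower, with a median log2 ratio of 0.55 (0.32 with no filter on the mean). Fstl1, a secreted follistatin-like glycoprotein, stood at 7.77 TPM (JC-WT), 14.6 TPM (JC-P) and 132 TPM (JC-M3) (log2 ratio 3.13, 3.04 to 3.32). The CCN genes, small integrin-binding proteins, were higher together, with Ccn1 at 208, 89.4 and 543 TPM, Ccn4 at 12.1, 24.5 and 66.6 TPM, Ccn3 at 4.03, 1.91 and 5.44 TPM and Ccn2 at 3.00, 2.13 and 4.94 TPM. JC-WT lay between the other libraries for Ccn1, Ccn2 and Ccn3, and below both for Ccn4. Postn, periostin, stood at 1.18, 0.56 and 4.69 TPM, Ecm1 at 202, 193 and 464 TPM and the vascular matrix gene Igfbp7 at 74, 48.1 and 114 TPM. The lower ones were Spp1, osteopontin and one of the most abundant transcripts in JC-P, at 9604, 15489 and 5452 TPM (log2 ratio -1.51, -1.52 to -1.49), the integrin ligand Edil3 at 4.89, 10.5 and 3.04 TPM and the TGF-beta-induced adhesion gene Tgfbi at 2.27, 4.12 and 1.58 TPM.

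Collagen chains were divided, with 5 of 19 higher and 2 lower (median 0.14). Their summed level was 1867.4, 2012.8 and 2885.5 TPM. Among the higher chains Col6a2 stood at 23.5, 32.1 and 105 TPM and Col8a1, a chain of the network collagen of vessel walls, at 16.5, 17.8 and 43.4 TPM. Of 35 genes that fold and join collagen, 5 were higher and 2 lower, with a median of 0.13. Fkbp10, a prolyl isomerase of the endoplasmic reticulum, stood at 0.19, 0.21 and 66.4 TPM (log2 ratio 6.56, 6.96 to 10.20), P3h4, a partner of collagen lysyl hydroxylation, at 0, 0.070 and 4.02 TPM, and Plod2, the telopeptide lysyl hydroxylase, at 14.6, 26.1 and 69.5 TPM. Pcolce2, an enhancer of procollagen cleavage, stood at 0.68, 0.59 and 9.17 TPM. The lysyl oxidase gene Loxl1 and the procollagen protease gene Bmp1 were lower, at 125, 80.8 and 22.1 TPM and 74.9, 87.4 and 40.1 TPM. All 14 measured proteoglycans and 6 laminins lay within 2-fold. In elastic fibres Ltbp2 was higher and Efemp1, fibulin-3, lower at 1378, 1779 and 667 TPM.

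Among matrix-degrading enzymes the stromelysins were lower and a main inhibitor was higher. Of 14 measured metalloproteinase and inhibitor genes, 5 were lower and 1 higher (median -0.50, or -0.27 with no filter on the mean). Mmp3, stromelysin 1, stood at 708, 414 and 42.5 TPM (log2 ratio -3.27, -3.42 to -3.16), Mmp10, stromelysin 2, at 39.7, 32.3 and 3.47 TPM and the gelatinase gene Mmp2 at 45.6, 123 and 47.9 TPM. Mmp2 in JC-M3 was close to its level in JC-WT, unlike Mmp3 and Mmp10, which were lower than in both other libraries. Timp2, the metalloproteinase inhibitor that also takes part in activating Mmp2, was the higher gene at 755, 546 and 1142 TPM (log2 ratio 1.06, 1.03 to 1.09). Among 11 serpins, 4 were lower and 1 higher. Serpine2, protease nexin 1, stood at 26.3, 19.9 and 4.49 TPM, and Serpinb9, the granzyme B inhibitor, at 146, 204 and 53.6 TPM. Of 8 lysosomal cathepsins 7 had ratios below 0, with Ctsl at 697, 953 and 469 TPM just past the threshold. Slpi, a secreted inhibitor of leukocyte elastase, had the largest loss in level after Spp1, at 10440 TPM (JC-WT), 9365 TPM (JC-P) and 1974 TPM (JC-M3) (log2 ratio -2.25, -2.27 to -2.22). The hyaluronan-degrading gene Cemip was lower at 6.84, 11.5 and 2.53 TPM, and the hyaluronan-binding gene Tnfaip6 higher at 1.74, 1.69 and 9.55 TPM. Sulf2, which removes sulphate from heparan sulphate outside the cell, went from 591 reads in JC-P to 2 in JC-M3, with 447 in JC-WT. Enzymes of heparan and chondroitin sulphate and their relatives were divided, with 3 of 32 higher and 3 lower (median 0.20). Beside Sulf2, the sulphotransferase genes Chst1 at 104, 125 and 36.3 TPM and Chst15 at 10.4, 9.76 and 1.66 TPM were lower. The higher genes were Papss2, which makes the sulphate donor, at 3.76, 5.77 and 15.5 TPM, the epimerase gene Dse at 57.2, 48.7 and 99.4 TPM and the sulphotransferase gene Chst7 at 7.43, 6.76 and 14.1 TPM.

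TGF-beta and activin genes included 6 higher and 1 lower of 25, with a median of 0.13. Of the ligands, Tgfb2 stood at 0.74, 0.53 and 3.73 TPM, Tgfb1 at 12.8, 8.09 and 17.8 TPM and the activin subunit gene Inhba at 2.01, 3.88 and 8.67 TPM. The alpha subunit Inha, which turns activin into inhibin, was the lower gene at 13.3, 16.4 and 5.63 TPM. Feedback genes of the pathway were higher, Pmepa1 at 5.27, 5.70 and 16.9 TPM and Skil at 14.8, 12.2 and 29.2 TPM. BMP genes went both ways, 3 higher and 3 lower of 19. The ligand gene Gdf5 stood at 3.29, 4.85 and 26.2 TPM and the BMP antagonist gene Nbl1 at 9.71, 19.2 and 82.2 TPM, whereas the BMP targets Id4 (14.3, 3.95 and 0.49 TPM) and Id1 (191, 111 and 43.6 TPM) were lower. Exons of Gdf5 overlap a gene on the opposite strand over 40.3% of their length, so its reads are uncertain. YAP and TEAD targets had a median of 0.43, with 9 of 28 higher and 1 lower. Beside the CCN genes they included Crim1 at 35.4, 25 and 71.6 TPM, the pathway regulators Amotl2 at 56.6, 39.5 and 90.02 TPM and Wwc1 at 4.36, 2.58 and 8.55 TPM, and the kinase gene Nuak2 at 3.14, 3.65 and 8.22 TPM. Immediate early genes had a median of 0.44, or 0.32 with chromosome medians subtracted, with 4 of 28 higher and the flow-responsive factor gene Klf2 lower at 7.67, 12.3 and 2.68 TPM.

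Wnt ligand genes went in opposite directions. Wnt10b stood at 3.89, 3.04 and 28.2 TPM and Wnt7b at 65.1, 55.9 and 11.5 TPM (log2 ratio -2.24, -2.45 to -2.13), higher and lower in JC-M3. The Wnt target and feedback inhibitor Nkd1 was lower at 18.1, 19.2 and 2.97 TPM, the secreted antagonist Sfrp1 at 6.01, 3.62 and 0.067 TPM and Porcn, which lipidates Wnt ligands, at 6.09, 4.57 and 1.65 TPM. Altogether 2 of 30 Wnt genes were higher and 4 lower. Hedgehog genes had 3 of 10 higher, including the target and effector Gli1 at 0.90, 1.31 and 8.99 TPM (log2 ratio 2.39, 2.31 to 3.27) and Gli2 at 1.52, 3.10 and 7.38 TPM, and 1 lower, the surface coreceptor Gas1 at 394, 333 and 149.6 TPM. Notch genes had 0 of 19 higher and 3 lower, the receptor Notch1 at 62.2, 62.9 and 26.7 TPM, the ligand Dll4 at 13.8, 2.33 and 0.23 TPM and the feedback gene Nrarp at 5.48, 2.59 and 0.79 TPM, whose exons overlap an opposite-strand gene over 79.4% of their length. EGF receptor ligands were exchanged, with epiregulin, Ereg, at 83.6, 44.4 and 116 TPM and epigen, Epgn, at 0.62, 0.67 and 7.82 TPM higher and Tgfa at 5.86, 5.02 and 0.92 TPM lower. Of the other receptor kinase genes, Gdnf, a neurotrophic ligand of Ret, stood at 15, 21.4 and 64.9 TPM and Pros1, a ligand of TAM receptors, at 0, 0 and 3.17 TPM. Gas6, the other TAM ligand, was lower at 12.2, 23.9 and 2.06 TPM. The TAM receptor gene Axl was within 2-fold at 742, 739 and 947 TPM.

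**Figure D3:**
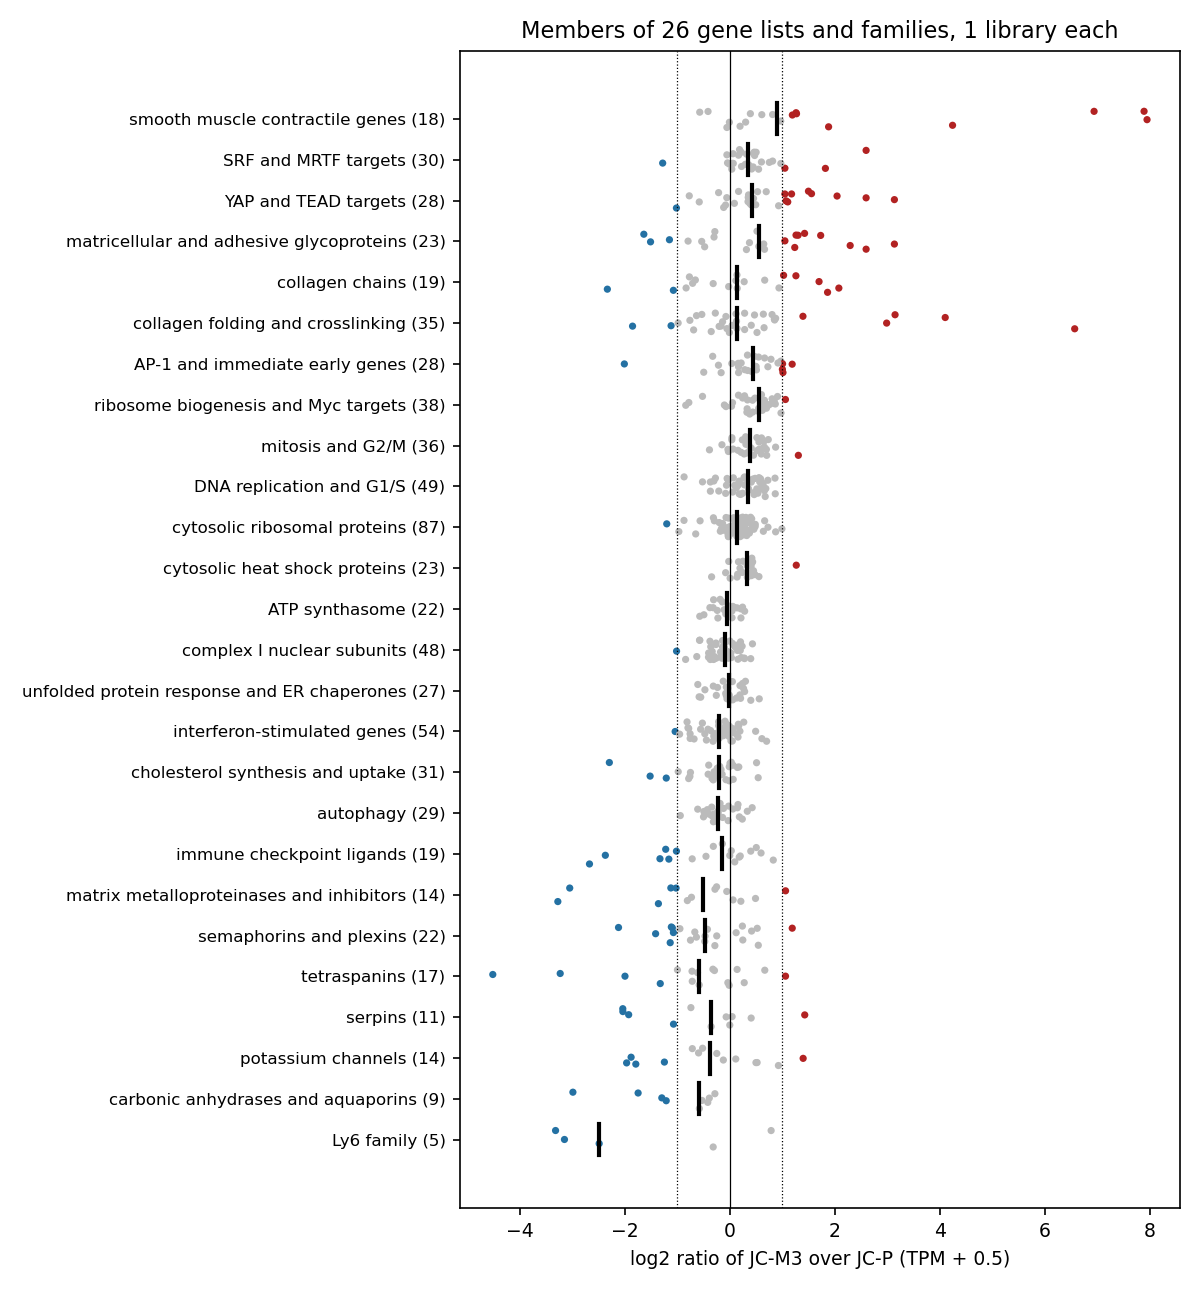
Log2 ratio of JC-M3 over JC-P for each measured member (points) of 26 gene lists and families, 1 library each, with the number of measured members in parentheses. Black bars are medians, dotted lines mark 2-fold, and red and blue points are members at least 2-fold higher and lower. The long right-hand tail belongs to smooth muscle and collagen folding genes, while respiratory, chaperone and ribosome families stay mostly within 2-fold.

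Axon guidance genes of the semaphorin and plexin families had 6 of 22 lower and 1 higher, with 15 ratios below 0 and a median of -0.47. Sema4c stood at 66.2, 109.9 and 25 TPM (log2 ratio -2.12, -2.25 to -2.03), Sema3f, a repellent of vessels and axons, at 188, 213 and 96.8 TPM and Sema7a at 239, 219.5 and 101 TPM. Nrp2, the receptor that Sema3f binds, was the higher gene at 60.3, 44.6 and 102 TPM. The netrin receptor gene Unc5b was also higher, at 38.7, 29.96 and 67.1 TPM. Among 45 G protein-coupled receptor genes, 9 were lower and 3 higher. Gprc5b, the most abundant, stood at 267, 205 and 91 TPM, its relative Gprc5a moved the other way at 16, 14.2 and 36.7 TPM, and the adrenergic receptor gene Adra1b stood at 21.9, 52.7 and 24.3 TPM. Of 14 potassium channel genes 4 were lower and 1 higher. Kcnh2, the channel of cardiac repolarisation, stood at 26.6, 63.8 and 16 TPM and Kcnn4, a calcium-activated channel, at 75.4, 54.6 and 14.5 TPM. The median of the potassium channels was -0.38 but -0.05 with no filter on the mean.

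Other channels showed the opposite balance, with 8 of 41 sodium, calcium, chloride, TRP and purinergic genes higher and 3 lower. Piezo1, the mechanically gated channel, was the most abundant of the higher ones at 80.8, 67.3 and 141 TPM (log2 ratio 1.07, 1.02 to 1.12). The calcium channel subunit Cacng7 stood at 0, 2.93 and 15.3 TPM and the ATP-gated channel P2rx7 at 0.78, 0.92 and 4.69 TPM. The chloride channel gene Ano1 was lower at 2.33, 4.89 and 0.046 TPM, with no counting interval. Carbonic anhydrases and aquaporins, which move protons, bicarbonate and water, all had ratios below 0 (9 of 9, median -0.58), and 4 were lower. Aqp1, the most abundant, stood at 1136, 782 and 543 TPM, Aqp5 at 264, 167 and 72.2 TPM, Aqp3 at 14.5, 7.24 and 0.48 TPM and the hypoxia-induced Car9 at 37, 68.1 and 19.99 TPM. For Aqp1, Aqp5 and Aqp3 the level was highest in JC-WT and lowest in JC-M3. Of 26 sodium, calcium and proton pump genes, none passed 2-fold.

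Immune genes differed in the surface and soluble members more than in the interferon program. Interferon-stimulated genes had a median of -0.20 with 40 of 54 ratios below 0, yet 1 lower and 0 higher. Isg15, the most abundant, stood at 1806, 3392 and 4775 TPM. Of 24 antigen presentation genes 2 were lower, both nonclassical class I genes, H2-T24 at 16.3, 42.1 and 6.21 TPM and H2-T23, which presents peptides to NK cell receptors, at 202, 318 and 142 TPM. B2m, the light chain of all class I molecules, stood at 3324, 4842 and 3413 TPM. Of 19 genes for checkpoint ligands and related surface or secreted proteins, 6 were lower and 0 higher. Cd276, the B7-H3 ligand, stood at 34, 30.04 and 4.30 TPM (log2 ratio -2.67, -3.11 to -2.51), Havcr2, TIM-3, at 29.7, 12 and 1.93 TPM, Vsir, VISTA, at 13.6, 23.7 and 9.16 TPM and Lgals3, galectin-3, at 733, 439 and 189 TPM. The last is one of the abundant transcripts in JC-WT, and its level was highest in JC-WT and lowest in JC-M3. Of 5 measured Ly6 genes, which encode small lipid-anchored surface proteins, 3 were lower, Ly6a at 49.2, 184 and 20.3 TPM, Lypd3 at 206, 119.5 and 20.9 TPM and Ly6c1, whose sequence is partly shared, while Ly6e was within 2-fold at 1262, 1976 and 1589 TPM. The family median was -2.48, or -0.30 with no filter on the mean.

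Chemokine genes had 2 of 15 higher and 2 lower. Ccl5, which attracts T cells and monocytes, stood at 89.9, 84.8 and 239 TPM and Cxcl10 at 32.8, 79.7 and 171 TPM, both higher, while Ccl8 was lower at 2.19, 4.17 and 0.29 TPM and Cxcl16 at 5.43, 4.08 and 1.5 TPM. Ccl2, the most abundant chemokine, was within 2-fold at 119, 435 and 302 TPM. Of the cytokines, Tnf stood at 0.23, 0.84 and 10.9 TPM and Lif at 17.3, 9.20 and 26.6 TPM, higher in JC-M3, whereas the colony-stimulating factor genes Csf2 (6.75, 8.94 and 1.64 TPM) and Csf3 (44.3, 13.4 and 4.85 TPM) and the inflammasome cytokine gene Il18 (15, 41.5 and 14.1 TPM) were lower. Csf1, the macrophage factor, stood at 316, 310.4 and 532 TPM, below the threshold. In prostaglandin metabolism the synthase gene Ptgs2, cyclooxygenase 2, stood at 209.6, 190.4 and 825 TPM (log2 ratio 2.11, 2.08 to 2.16) and Pla2g7, which hydrolyses platelet-activating factor, at 1.09, 1.94 and 25.5 TPM. The prostaglandin importer gene Slco2a1 was lower at 162, 139 and 50.8 TPM and the receptor gene Ptger2 at 2.98, 3.28 and 1.07 TPM.

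Core energy metabolism was level, and single enzymes at its edges were not. The series names the ATP synthasome, and none of its 22 measured genes passed 2-fold (median -0.05). Complex I had 1 of 48 genes lower, Ndufa1 at 97.8, 167 and 82.8 TPM, and complexes II to IV had 1 of 47 higher, Uqcr11. Glycolysis genes had 1 higher and 1 lower of 28, and the 13 mitochondrially encoded protein genes a median of 0.00. Idh1, the cytosolic isocitrate dehydrogenase that makes NADPH, was lower at 579 TPM (JC-WT), 505 TPM (JC-P) and 103 TPM (JC-M3) (log2 ratio -2.28, -2.36 to -2.22), and its mitochondrial relative Idh2 stood at 173, 184 and 91.7 TPM, just past the threshold but short of it under 2 other scalings and with a pseudocount of 2 TPM. JC-WT and JC-P were close for both genes. Glutathione transferases had 5 of 19 lower and 3 higher. Gsta4, which detoxifies lipid aldehydes, stood at 243, 525 and 50.7 TPM and the microsomal Mgst1 at 44.6, 48.7 and 15.6 TPM, while Gstk1 was higher at 0.25, 2.07 and 6.15 TPM and Gstt1 at 5.97, 7.47 and 16 TPM. Aldehyde dehydrogenases and aldo-keto reductases had 15 of 19 ratios below 0 and 3 lower, among them Aldh3a1 at 167, 102 and 37.1 TPM and Aldh3a2, which oxidises fatty aldehydes, at 133, 143 and 60.5 TPM. The 32 glutathione and NRF2 target genes all lay within 2-fold.

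In lipid metabolism 3 of 31 cholesterol genes were lower and 0 higher (median -0.19). Among them was the cholesterol exporter Abca1 at 6.26, 9.21 and 2.90 TPM. The list for fatty acid synthesis and desaturation had 2 of 29 higher and 1 lower (median -0.06). Gpam, which begins triglyceride synthesis, was higher at 9.84, 10.3 and 31.4 TPM and Dgat2, which completes it, at 1.75, 1.14 and 3.45 TPM. Of the serine incorporator genes, Serinc2 had 1, 0 and 895 reads and Serinc3 was lower at 131, 253 and 115 TPM. Arginine, proline and polyamine genes had 4 of 22 lower and 1 higher. Ass1, which makes argininosuccinate, stood at 13, 26.4 and 9.66 TPM, and shares 38.6% of its windows with other genes, and Ddah1, which clears methylated arginines, at 5.75, 4.20 and 45.7 TPM (log2 ratio 3.30, 3.16 to 3.74). Smox, spermine oxidase, stood at 10.8, 10.1 and 3.74 TPM. Metallothioneins and zinc transporters had 3 of 18 higher and 0 lower, and the 3 respond to zinc through the same factor: Mt2 at 573, 270.2 and 867 TPM, Mt1 at 215, 71.7 and 169.5 TPM and the zinc exporter Slc30a1 at 13.8, 6.18 and 16.7 TPM. JC-P was the lowest of the 3 libraries for each. Exons of Mt2 overlap an opposite-strand gene over 73.5% of their length. Amino acid carriers were exchanged, with the glutamine transporter Slc38a3 lower at 87.9, 135 and 11.6 TPM and Slc38a1 of the same family higher at 2.81, 3.08 and 11.2 TPM, and the glutamate carrier Slc1a2 higher at 0.78, 0.38 and 4.44 TPM. The iron oxidase gene Heph had 0 reads in JC-WT and JC-P and 392 in JC-M3, which is at least 125-fold above a floor of 3 reads.

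Growth genes leaned higher in JC-M3 than in JC-P by small amounts spread over many members. Ribosome biogenesis genes and Myc targets had a median of 0.56, with 33 of 38 ratios above 0 and 1 member past 2-fold, Cad, the enzyme that begins pyrimidine synthesis, at 79.1, 40.7 and 85.4 TPM. Their summed level was 6955, 5274 and 7350 TPM, so JC-P was the low library. Mitosis genes had a median of 0.38 with 32 of 36 above 0, and DNA replication genes 0.35 with 38 of 49 above 0. Summed levels were 4464, 3661 and 4890 TPM for mitosis and 5217.5, 4007 and 4767 TPM for DNA replication. JC-P was the low library for both, and for DNA replication JC-M3 stood below JC-WT. Cdc20, the activator of the anaphase-promoting complex, was the single mitosis gene past 2-fold at 238, 161 and 399.98 TPM. The nucleotide synthesis list had a median of 0.26, with Ctps1, CTP synthase, higher at 87.8, 66.1 and 152 TPM. Of 87 cytosolic ribosomal protein genes 65 were above 0 (median 0.14), and translation factors had the same median with none of 64 past 2-fold. Cytosolic heat shock genes had 20 of 23 above 0 (median 0.34), while the 27 genes of the unfolded protein response had a median of -0.01 and none passed 2-fold. Likewise 0 of 30 integrated stress response genes, 0 of 41 proteasome genes and 0 of 29 autophagy genes were called. Of the brakes on the cell cycle, Cdkn2b, p15, was lower at 142, 197 and 92.5 TPM, and Plk2, a p53-induced kinase, was higher at 40.4, 14.5 and 41.5 TPM. Among apoptosis genes 2 of 32 were lower, the survival gene Bcl2l1, which encodes BCL-XL, at 123, 77.8 and 33.2 TPM and the BH3-only gene Bmf at 8.12, 14.7 and 4.88 TPM.

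Transcription factor families held few called members by number. The higher share was 17.4% for forkhead and GATA factors and 25% for Hox genes, against 3.82% over all measured features. Each share rests on few genes. Forkhead and GATA factors had 4 of 23 higher and 1 lower. Foxf1, a factor of lung and gut mesenchyme, stood at 41, 57 and 139 TPM (log2 ratio 1.28, 1.17 to 1.40), Foxc2 at 6.15, 3.18 and 8.18 TPM and Gata2 at 3.21, 2.11 and 6.62 TPM. Foxs1 stood at 0, 0.58 and 3.67 TPM. Of 8 measured Hox genes 2 were higher, Hoxc6 at 1.08, 1.26 and 5.21 TPM and Hoxc13 at 2.20, 1.48 and 6.57 TPM, which lie in the same cluster. The nuclear receptor genes Esr2, oestrogen receptor beta, at 0.61, 0.27 and 4.02 TPM and Nr1h4, the bile acid receptor, at 0.16, 0.93 and 6.08 TPM were higher, and Nr2f1, COUP-TF1, was lower at 61.8, 81.4 and 31 TPM. The homeobox gene Irx3 was lower at 29.5, 57.2 and 18.8 TPM. Zfp469, linked to collagen in the cornea, was the single one of 340 zinc finger Zfp genes that was higher, at 1.11, 1.06 and 13.3 TPM, while 8 were lower. Of 13 measured imprinted genes 3 were lower, among them H19, the noncoding RNA beside Igf2, at 1.36, 24.1 and 4.74 TPM.

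Enzymes that build sugar chains were exchanged, with 4 of 45 higher and 4 lower. St3gal1, which caps O-glycans with sialic acid, stood at 284, 357 and 124 TPM (log2 ratio -1.52, -1.57 to -1.48) and Gcnt1, which branches the core of O-glycans, at 22.5, 37.9 and 8.65 TPM, both lower. Galnt13, which starts O-glycans, was higher at 0.14, 0.51 and 5.79 TPM and Gcnt2, which makes branched I antigen, at 5.68, 4.66 and 15.4 TPM. Among 41 lysosomal genes Scarb2, the receptor that carries glucocerebrosidase, was lower at 117, 185 and 62.4 TPM. Of 26 caveolae, clathrin and membrane curvature genes, 1 was higher and 2 lower (median -0.06). Cavin2 was the higher one at 94.4, 118 and 244 TPM, and the caveolin Cav1 was within 2-fold at 1128, 1641 and 1032 TPM. COPII and secretory pathway genes had 0 of 33 called.

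Several protein-coding genes were near absent in one library and present in the other. At no more than 3 reads in JC-P and at least 5 TPM in JC-M3 were 10 genes. Beside those named above they included Ptn, pleiotrophin, a heparin-binding growth factor, with 0, 3 and 414 reads, and Gap43, a growth cone protein, with 0, 2 and 69 reads. In the other direction, 9 genes had at most 3 reads in JC-M3 and at least 5 TPM in JC-P. Mamdc2, a matrix proteoglycan gene, had 7, 131 and 0 reads, and the olfactory receptor gene Or4c12 172, 413 and 0 reads. Fahd2a had 47, 61 and 0 reads and Orm3, an acute-phase protein gene, 36, 41 and 3. Sulf2, Or4c12, Fahd2a and Orm3 were present in both JC-WT and JC-P, whereas Cdh5 and Mamdc2 were chiefly in JC-P.

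Ratios also differed by chromosome. Protein-coding genes of chromosome 13 had a median log2 ratio of -0.52 over 437 genes, 87.0% of them below 0, and 52 were lower and 8 higher. Chromosome 14 followed with -0.26 (387 genes, 76.2% below 0) and chromosome 2 with -0.23 (927 genes, 71.3% below 0). Chromosome 3 had the highest median, 0.25 over 549 genes with 23.3% below 0, followed by chromosome 15 at 0.24 and chromosome 10 at 0.22. The median of JC-P over JC-WT was 0.03 for chromosome 13 and 0.19 for chromosome 10, a comparison that shares the JC-P library. Within chromosome 13 the medians of windows of 20 Mb, laid out after the data were seen, ranged from -0.28 (20 to 40 Mb) to -0.80 (80 to 100 Mb, 54 of 58 genes below 0). On chromosome 10 the median was 0.41 to 0.46 in the first 60 Mb and 0.07 to 0.09 beyond 80 Mb. On the X chromosome the first 20 Mb had -0.67, with 37 of 40 genes below 0. Copy number was not measured here, and the part of these shifts in the gene results was not tested. Subtracting the chromosome medians, an alternative added after the data were seen, left 565 features higher and 724 lower. Of the genes described above, 17 then fell short of 2-fold. Ctsl, Tgfbi, Gas1, Ocln and Nr2f1 among them lie on chromosome 13. The others were Pdlim2, Bmp1, Ndufa1, Serinc3, Lgals3, Bcl2l1, Notch1, Ccn2, Gstt1, Unc5b, Dse and Skil. For Ctsl the log2 ratio was then -0.50.

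**Figure D4:**
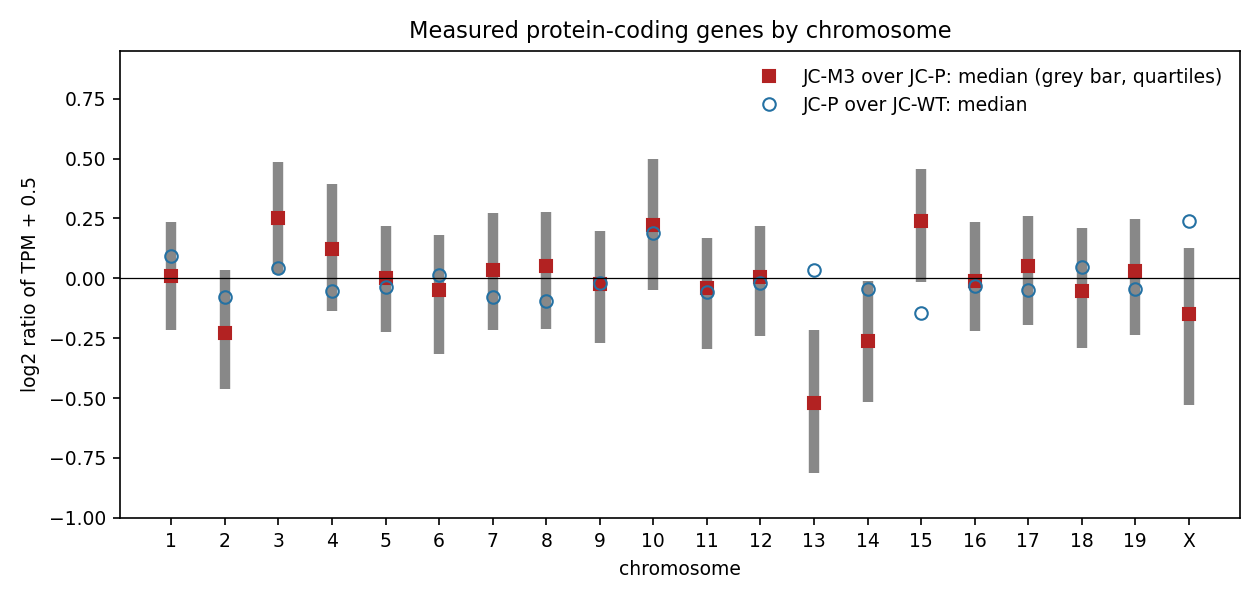
Median log2 ratio of measured protein-coding genes on each chromosome for JC-M3 over JC-P (red squares; grey bars run from the lower to the upper quartile) and for JC-P over JC-WT (open blue circles), 1 library each. Both comparisons share the JC-P library. For JC-M3 over JC-P chromosome 13 has the lowest median, -0.52.

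Neighbouring genes sometimes differed together. There were 9 runs of at least 3 consecutive measured protein-coding genes all past 2-fold in the same direction, 8 of them lower. On chromosome 9, Mmp1b, Mmp3 and Mmp10 were lower side by side (7368239 to 7510240, GRCm38), as were Cilk1, Gsta4, Gsta1 and Gsta5 (78109192 to 78305525). Sequence of Gsta1 and Gsta5 is shared with other genes over 90.5% and 49.4% of windows, so how reads divide among them is uncertain. A stretch of the same chromosome from 57940112 to 58555437 held a pair of runs, Sema7a, Stra6 and Islr, then Loxl1, Insyn1 and Cd276. On chromosome 13, Ccdc125, Cdk7, Mrps36 and Cenph were lower (100669717 to 100775899), as were the proliferin genes Prl2c3 and Prl2c2 with Gpr137b (12790816 to 13394014). Of the windows in Prl2c2, Prl2c3 and Gpr137b, 83.3%, 59.99% and 28.5% also occur in other genes, so this run is uncertain as well. The single higher run was Znhit6, Ccn1 and Ddah1 on chromosome 3 (145576205 to 145894277), so the matricellular gene and the arginine enzyme named above are neighbours. Lower runs also lay on chromosome 6, Tmem176b, Tmem176a and Gpnmb (48833818 to 49070929), and on the X chromosome, Apln, Xpnpep2 and Sash3 (48025146 to 48161565). Some runs lay in windows of 20 Mb that differed as a whole. On chromosome 13 the window medians were -0.49 (0 to 20 Mb) and -0.74 (100 to 120 Mb). They were -0.54 on the X chromosome (40 to 60 Mb) and 0.41 on chromosome 3 (140 to 160 Mb). Windows of the runs on chromosomes 6 and 9 had medians from -0.13 to 0.11. The part of these window medians in the runs was not tested.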

How the data were processed

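Polyadenylated RNA of 3 cultured JC populations was sequenced, 1 library each. The deposited table gives TPM, which the authors made from reads per gene, gene length and library total, per the file headers. FastQC 0.11.9, the aligner STAR 2.7.9a, featureCounts and the builds mm10 and GRCm38 appear in the submitters' processing notes. For the annotation release and strand setting, the sources used here give nothing. Gene positions are GRCm38 (GENCODE M21) and promoters are from RefSeq (GRCm38.p6).

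The log2 ratio of TPM + 0.5 was taken between JC-M3 and JC-P for the 14527 features averaging 1 TPM or more across all 3 libraries, and 2-fold was the threshold. TPM times merged exon length, known for 55230 features, gave whole reads (tolerance 0.01) in 98.4% of expressed JC-WT genes and 98.5% of those in JC-P and JC-M3. Clopper-Pearson intervals at 95% and floors of 3 reads come from these reads and cover counting error only. Where the share of 50-base windows also found in other genes was above 20%, or exons overlapped another gene, the main cases are stated.

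The comparison, the 143 gene lists and families and all rules were chosen with earlier results of these data known. Lists are described by counts and medians. The text names the 25 highest and 25 lowest ratios with at least 10 TPM on average in JC-P and JC-M3, up to 4 higher and 4 lower members and the most abundant member of each list, the 12 largest gains and losses in TPM, genes near 0 in 1 library, runs of neighbours, and markers of other cells; some genes that these rules pick are not reported here. Csrp1, Fhl1, Tagln, Mustn1, Ccn3, Ccn4, Ecm1, Plod2, Tgfb1, Inhba, Crim1, Amotl2, Nuak2, Adra1b and Piezo1, the epithelial genes near 0, 4 further smooth muscle genes, and the genes with a CArG box were added after their values were seen. Other scalings, pseudocounts, expression filters and thresholds were tried. Scripts were tested on simulated data. Intervals used scipy 1.17.1, tables pandas 2.3.3 and numpy 2.4.6, and plots matplotlib 3.10.9, under Python 3.11.15.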

Additional observations from a re-analysis of the deposited data

How the results depend on the processing

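The counts of higher and lower features stayed within 1.5 times of 555 and 781 under the 3 other scalings, with a pseudocount of 0.1 TPM, with the mean taken over JC-P and JC-M3 alone, with chromosome medians subtracted (chosen after seeing the data) and when the counting interval had to leave out no change. They were 328 higher and 443 lower with a pseudocount of 2 TPM, 154 and 269 where the mean had to reach 10 TPM, 1024 and 1288 unfiltered, 1456 and 1934 at 1.5-fold, 137 and 178 at 4-fold, and 316 and 458 among protein-coding genes. Fewer or more features enter under most of these settings by construction. Of 138 list medians, the scalings moved none by more than 0.1. Where the mean had to reach 10 TPM, 16 changed sign, 4 of them at least 0.2 from 0 with the settings used above. These were cadherins (from -0.31 to 0.45), endothelial markers (-1.40 to 0.0443), luminal markers (0.43 to -1.38) and basal markers (0.46 to -0.16). Keratins turned from -0.55 to 0.19 with the mean taken over JC-P and JC-M3, and cytochrome P450 enzymes from -0.22 to 0.10 with no filter. Each rests on few genes, and the cause was not tested. With chromosome medians subtracted 30 medians moved by 0.1 or more and 17 changed sign. All 17 were less than 0.2 from 0 with the settings used above, such as the BMP list (to 0.18) and glutathione transferases (to -0.19). Of 207 genes with values in the text, 24 fell short of 2-fold with a pseudocount of 2 TPM, such as Tagln (0.68), Ocln (-0.49) and Ccn2 (0.75), and none changed sign. No paired analysis was possible because each group has 1 library. Depth limits low genes most, since an expression of 1 TPM rests on few reads in a short gene.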
